A study of Mus musculus with 6 samples.

Results

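Protein kinase C (PKC) is a family of serine and threonine kinases, and the 8 genes described here (Prkca, Prkcb, Prkcd, Prkce, Prkch, Prkci, Prkcq and Prkcz) encode 8 of its isoforms. They were taken by gene name from the 34745 genes of the deposited table. The group was chosen by measured values of these same libraries, the isoform levels and shares and their difference between the diets. All 8 were among the 15539 genes with enough counts to be tested. The data are RNA-seq of 6 subcutaneous tumours, each from a C57BL/6J host. The animals ate either a high cholesterol diet (HCD, 3 tumours) or a normal diet (ND, 3 tumours). All animals had received B16F10 cells, a line from a mouse melanoma, in the right flank, and the labels give no age, sex or length of the diet. The labels number the tumours within a diet without saying how animals and tumours were matched, so errors measure only the spread between these samples. Each library is bulk tumour tissue, in which fewer cells of a type and less RNA per cell cannot be told apart.

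Classical isoforms (Prkca and Prkcb) need calcium and the membrane lipid diacylglycerol, which phospholipase C releases when receptors are engaged. The calcium-independent isoforms Prkcd, Prkce, Prkch and Prkcq respond to diacylglycerol alone, and atypical isoforms (Prkci and Prkcz) respond to neither and act with the polarity proteins of the Par complex. Prkcb carries signals of the B cell receptor, Prkcq those of the T cell receptor, and Prkch is known from lymphocytes, macrophages and epithelia. These 3 are called leucocyte-type below and the other 5 tumour-type. The names come from general knowledge of the genes, and no cell type was measured separately here. Prkcd is abundant in myeloid cells as well as in many other tissues.

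The labelled origin of the tumours was set against its defining genes. The pigment cell genes Tyr, Dct, Mlana and Oca2 were listed at 0 counts in all 6 libraries, while the hepatocyte gene Alb stood at 1469, 1176 and 1672 FPKM in HCD 1 to HCD 3 and at 1553, 1299 and 1272 FPKM in ND 1 to ND 3. The 12 hepatocyte genes were uneven: Igfbp1, Afp, Apoa1, Apob, Hnf4a and Ttr averaged 1463, 148, 41.3, 25.7, 20.5 and 8.25 FPKM over the 6 libraries, while Trf and Ahsg averaged 0.691 and 0.363 FPKM and Fgg, Apoh and Serpina1a 0.0901, 0.0581 and 0.0523 FPKM. The summed level of the whole list of 10 pigment cell genes was 1.72 to 2.29 FPKM in HCD and 1.48 to 1.87 FPKM in ND tumours. FPKM is a read count per length of gene and per size of library. The tumours are therefore called by their label only. Library totals ran from 20351637 to 26228074 counts. HCD 1 and ND 2 stood apart by skeletal muscle RNA, with a summed level of 8 muscle genes of 798 and 666 FPKM, against 82.0 FPKM in HCD 2, 6.48 in HCD 3, 5.24 in ND 1 and 12.1 in ND 3.

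Promoter sequence was available from RefSeq (GRCm38.p6) for 6 of the 8 genes, Prkca, Prkcb, Prkcd, Prkci, Prkcq and Prkcz. Each window holds 250 bases before to 50 after a start site. Those of 2 leucocyte-type and 2 tumour-type isoforms are shown, the genes whose levels are set against each other below. Capitals mark the GC box, GGGCGG on either strand.

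Prkcb, chr7:122288875-122289174, plus strand: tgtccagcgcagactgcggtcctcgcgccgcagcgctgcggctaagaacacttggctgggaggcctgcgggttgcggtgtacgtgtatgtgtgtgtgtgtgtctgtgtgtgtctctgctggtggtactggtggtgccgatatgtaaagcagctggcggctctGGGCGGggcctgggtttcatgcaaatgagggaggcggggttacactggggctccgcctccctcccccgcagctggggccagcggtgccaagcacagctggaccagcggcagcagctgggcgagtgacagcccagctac

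Prkcq, chr2:11172132-11172431, plus strand: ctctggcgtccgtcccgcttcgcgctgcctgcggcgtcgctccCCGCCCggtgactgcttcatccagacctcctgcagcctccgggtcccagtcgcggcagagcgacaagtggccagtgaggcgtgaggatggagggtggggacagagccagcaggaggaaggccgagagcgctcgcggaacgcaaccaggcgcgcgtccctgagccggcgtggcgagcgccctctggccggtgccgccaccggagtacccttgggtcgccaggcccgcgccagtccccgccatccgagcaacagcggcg

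Prkca, chr11:108343839-108344138, minus strand: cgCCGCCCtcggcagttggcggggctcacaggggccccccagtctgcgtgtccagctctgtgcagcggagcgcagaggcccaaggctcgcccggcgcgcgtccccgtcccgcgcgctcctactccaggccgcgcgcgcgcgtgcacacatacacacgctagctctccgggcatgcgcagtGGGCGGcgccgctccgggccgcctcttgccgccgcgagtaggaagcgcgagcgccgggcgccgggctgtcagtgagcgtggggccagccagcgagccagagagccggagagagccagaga

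Prkci, chr3:30995521-30995820, plus strand: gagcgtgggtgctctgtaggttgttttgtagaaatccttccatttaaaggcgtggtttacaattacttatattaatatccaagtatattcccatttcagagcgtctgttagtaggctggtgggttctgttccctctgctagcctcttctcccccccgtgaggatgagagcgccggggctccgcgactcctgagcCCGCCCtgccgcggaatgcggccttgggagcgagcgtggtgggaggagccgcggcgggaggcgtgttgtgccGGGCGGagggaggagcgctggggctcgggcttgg

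The GC box occurred once in the Prkcb window and once in the Prkcq window. It occurred at 2 places in the Prkca window and at 2 in the Prkci window. Of 32851 promoter windows of the same length, 35.7% held it. None of the 4 windows held the AP-1 motif TGACTCA (5.20% of all windows), TATAAA (13.6%), the ETS motif CCGGAAG (8.86%), the E-box CACGTG (7.15%) or the CRE TGACGTCA (1.79%), each searched on both strands. CpG pairs numbered 19 in the Prkcb, 37 in the Prkcq, 42 in the Prkca and 22 in the Prkci window, against a median of 7 over all windows. Among the windows not shown, a Prkcd window held 4 GC boxes, 1 TATAAA and 1 E-box, and a Prkcz window held 1 CRE. Another Prkcd window held none of these motifs, and the other Prkcz windows held the GC box only. A match describes these letters only and is not a measured binding site.

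The atypical isoform Prkci had the highest deposited FPKM in every library. This kinase of cell polarity (chromosome 3, 30995747 to 31052959, plus strand) stood at 18.5, 19.3 and 19.4 FPKM in HCD 1 to HCD 3 and at 16.1, 17.6 and 18.0 FPKM in ND 1 to ND 3. Its levels lay close together, with a coefficient of variation of 6.44% over the 6 libraries in CPM, the read count scaled to library size without gene length. Prkcd, a calcium-independent isoform linked to cell death and to myeloid signalling (chromosome 14, 30595354 to 30626210, minus strand), came next with 10.9, 13.9 and 10.8 FPKM in HCD and 9.01, 11.6 and 10.8 FPKM in ND tumours. HCD 2 was the highest and ND 1 the lowest library for Prkcd.

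The classical isoform Prkca, which is expressed in most tissues (chromosome 11, 107933387 to 108343928, minus strand), had 3.67, 3.37 and 3.23 FPKM in HCD 1 to HCD 3 and 5.005, 5.195 and 4.19 FPKM in ND 1 to ND 3. Every HCD tumour lay below every ND tumour. Prkce, a calcium-independent isoform known from nerve and heart (chromosome 17, 86167785 to 86657919, plus strand), had 1.16, 1.37 and 1.44 FPKM in HCD and 1.35, 1.35 and 1.30 FPKM in ND tumours. Prkcz, the second atypical isoform (chromosome 4, 155260129 to 155361361, minus strand), had 0.607, 0.709 and 0.505 FPKM in HCD and 0.707, 0.651 and 0.457 FPKM in ND tumours. The diets overlapped for both Prkce and Prkcz. A shorter product of Prkcz from an internal start, known from brain, cannot be told from the full-length one in a count per gene.

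The leucocyte-type isoforms were the most variable. Prkch (chromosome 12, 73584796 to 73778185, plus strand) had 3.26, 5.02 and 1.94 FPKM in HCD 1 to HCD 3 and 1.35, 2.70 and 2.92 FPKM in ND 1 to ND 3. Prkcb (chromosome 7, 122288751 to 122634402, plus strand) had 0.928, 2.21 and 0.748 FPKM in HCD and 0.573, 1.09 and 0.887 FPKM in ND tumours. For these genes HCD 2 was the highest and ND 1 the lowest library, and HCD 3 lay below ND 2 and ND 3. Prkcq (chromosome 2, 11172108 to 11301222, plus strand) had 0.581, 0.605 and 0.241 FPKM in HCD and 0.120, 0.4005 and 0.302 FPKM in ND tumours. Its count was 25 in ND 1, where the exact Poisson 95% interval of the level ran from 0.0774 to 0.177 FPKM, below the intervals of ND 2, ND 3, HCD 1 and HCD 2. This interval covers counting error only.

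**Figure D1:**
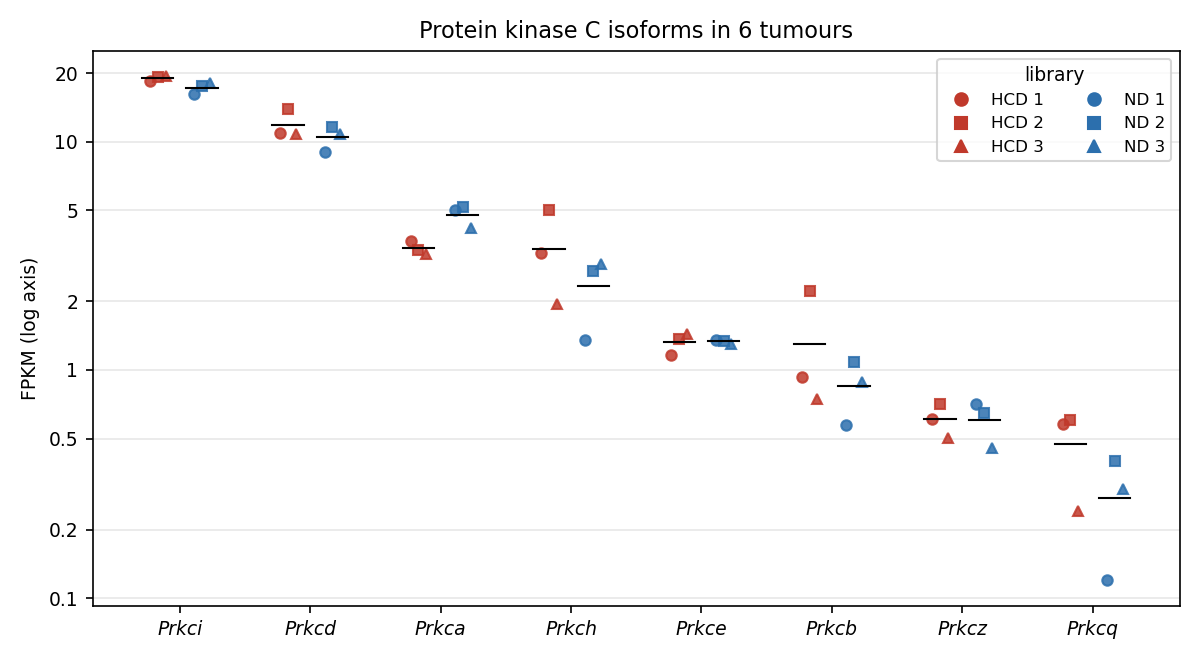
FPKM (log axis) of the 8 isoforms in each library, HCD left of ND, with black bars for the diet means. Prkci lies highest in all 6 libraries, Prkca is the isoform with all HCD points below all ND points, and Prkch, Prkcb and Prkcq spread most.

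Spread over the 6 libraries was largest for the leucocyte-type isoforms. The coefficient of variation in CPM was 53.3% for Prkcb, 50.1% for Prkcq and 42.9% for Prkch, against 20.8% for Prkca, 17.2% for Prkcz, 13.1% for Prkcd, 8.23% for Prkce and 6.44% for Prkci. Counting alone would give 11.6% for Prkcq, 9.17% for Prkcz and at most 6.48% for the others. The highest library exceeded the lowest 4.89-fold for Prkcq, 3.72-fold for Prkcb and 3.58-fold for Prkch, and 1.20-fold for Prkci.

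By mean level over the 6 libraries the order was Prkci (18.2 ± 1.22 FPKM), Prkcd (11.2 ± 1.57), Prkca (4.11 ± 0.837), Prkch (2.86 ± 1.26), Prkce (1.33 ± 0.0941), Prkcb (1.07 ± 0.583), Prkcz (0.606 ± 0.105) and Prkcq (0.375 ± 0.192) (SD, n = 6 each). The ranges of Prkci and Prkcd did not overlap, nor did those of Prkcd and Prkca, while every later pair of neighbours overlapped. The first place depended on gene length. The deposited FPKM imply a length of 9748 bases for Prkcd, 75.8% more than the 5544 exonic bases of the GENCODE M21 annotation, and of 5765 against 5551 bases for Prkci. With the M21 lengths Prkcd averaged 19.6 ± 2.77 and Prkci 18.9 ± 1.27 FPKM (SD, n = 6), ranges that overlap. Prkch, with an implied length 30.9% below that of M21, averaged 1.98 ± 0.871 FPKM on that scale and Prkce 1.90 ± 0.134. The annotation that the authors used was not given in the sources used here.

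Each isoform was also expressed as a share of the summed FPKM of the 8 genes, which was 39.6, 46.4 and 38.3 FPKM in HCD 1 to HCD 3 and 34.2, 40.5 and 38.9 FPKM in ND 1 to ND 3. Prkci and Prkcd together made up most of it in every library. The Prkci share averaged 46.3% ± 4.59 in HCD and 45.6% ± 2.01 in ND tumours and the Prkcd share 28.5% ± 1.19 in HCD and 27.6% ± 1.17 in ND tumours (SD, n = 3 each). These shares depend on gene length too. With the M21 lengths the mean share over the 6 libraries was 39.1% for Prkcd and 37.8% for Prkci. The Prkca share was 9.27, 7.27 and 8.42% in HCD 1 to HCD 3, all below the 14.6, 12.8 and 10.8% of ND 1 to ND 3. With Prkca in it, the classical pair held 11.3% ± 0.859 in HCD and 14.9% ± 1.69 in ND tumours (SD, n = 3 each), again without overlap.

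The leucocyte-type isoforms held 12.03, 16.9 and 7.64% of the sum in HCD 1 to HCD 3 and 5.98, 10.3 and 10.6% in ND 1 to ND 3. The mean was 12.2% ± 4.62 in HCD and 8.96% ± 2.59 in ND tumours (SD, n = 3 each), and the diets overlapped, with HCD 3 below ND 2 and ND 3. The difference of 3.22 percentage points was smaller than the SD of the HCD tumours. It was 0.878 points without HCD 2 and 1.73 points without ND 1. Without both libraries with muscle RNA it was 3.99 points. With the M21 lengths the leucocyte-type share averaged 8.77% in HCD and 6.35% in ND tumours. Skeletal muscle is a main site of Prkcq, and HCD 1, with the most muscle RNA, had the highest Prkcq share, 1.47%. ND 2, the other such library, had 0.988%. HCD 2, with 82.0 FPKM of muscle genes, had 1.30%. The part of muscle in the Prkcq level was not tested.

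**Figure D2:**
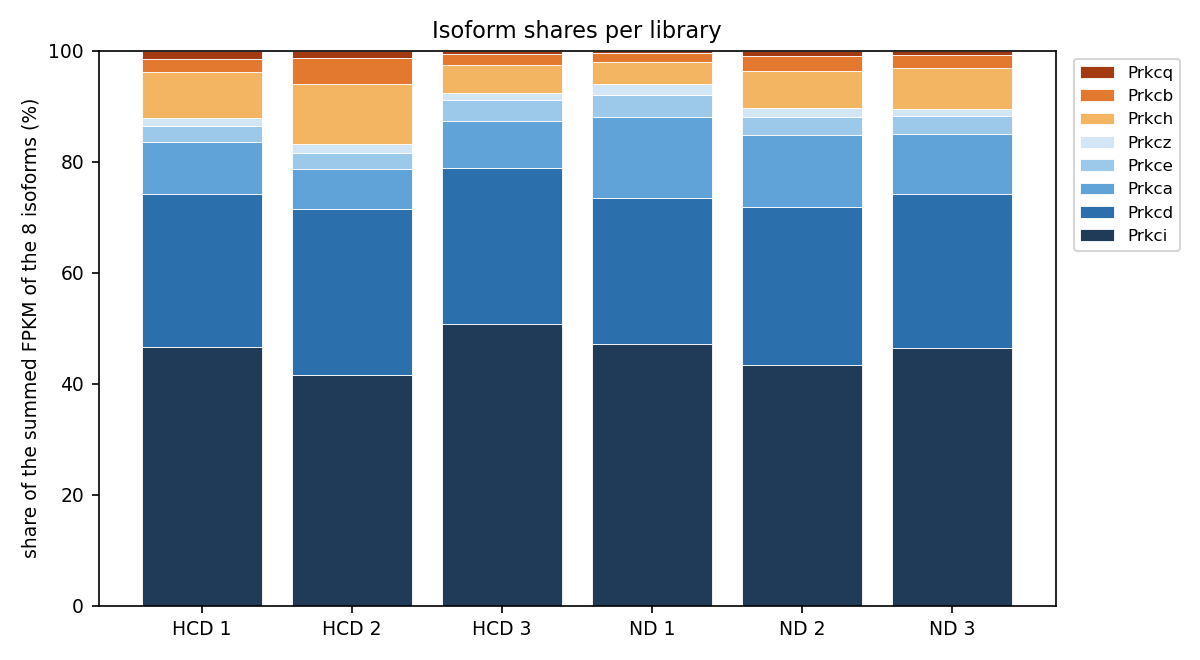
Share (%) of each isoform in the summed FPKM of the 8 genes per library, HCD libraries left of ND, with tumour-type isoforms in blue and leucocyte-type in orange. The orange part runs from 5.98% in ND 1 to 16.9% in HCD 2, and the Prkca band is thinner in each HCD library than in any ND library.

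The diets were then compared in a fit over all genes with edgeR's quasi-likelihood test, in which fold changes are HCD over ND on a log2 scale. None of the 8 isoforms passed, with Benjamini-Hochberg adjusted p from 0.839 to 0.990, and 0% of all tested genes passed in either direction. In the edgeR fit without adjustment, 823 genes lay under the 0.05 threshold (5.3% of those tested, 3.48% with HCD lower), Prkca among them and no other isoform. The DESeq2 Wald test called 7 genes, or 0.0282% of those it tested, and limma-voom called 0. Since the isoforms were chosen with the diet contrast known, their fold changes are given as a description.

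Prkca lay lowest relative to ND. It had 39.1, 36.1 and 35.7 CPM in HCD 1 to HCD 3 and 55.5, 56.0 and 45.5 CPM in ND 1 to ND 3, and the log2 fold change was -0.50 ± 0.10 SE (95% interval -0.74 to -0.26). By size of p it ranked 12 of 15539 genes in the edgeR fit, and its adjusted p was 0.839 there and 0.177 with DESeq2. All 3 HCD tumours lay below all ND tumours for 6.36% of tested genes and above them for 4.75%. Prkca was among the genes below and Prkci among the genes above. Prkca shares 30 exonic bases with Apoh on the opposite strand, which had 17 counts in all 6 libraries together. Prkce shares more, 472 exonic bases (6.5% of its exonic length) with AC154542.1 on the same strand. That gene is not among those of the deposited table.

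Prkci had 105, 110 and 114 CPM in HCD 1 to HCD 3 and 94.9, 100.4 and 104 CPM in ND 1 to ND 3, a log2 fold change of 0.13 ± 0.06 SE (95% interval -0.02 to 0.28). HCD 1 exceeded ND 3 by less than 1 CPM. The ratio of Prkca to Prkci in FPKM was 0.199, 0.175 and 0.166 in HCD 1 to HCD 3 and 0.310, 0.296 and 0.232 in ND 1 to ND 3. The ratio combines the differences of both genes. Since Prkca lay lower and Prkci higher in every HCD tumour, the ratio could not overlap between the diets and is no further result.

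The leucocyte-type isoforms had the largest positive fold changes and the widest intervals. The log2 fold change was 0.78 ± 0.50 SE for Prkcq (95% interval -0.42 to 1.97), 0.59 ± 0.43 for Prkcb (-0.43 to 1.61) and 0.54 ± 0.39 for Prkch (-0.39 to 1.46). These values turned on single libraries. Without HCD 2 the value of Prkcb was -0.02 and that of Prkch 0.16, and without ND 1 Prkcb had 0.38, Prkch 0.27 and Prkcq 0.42. Without HCD 3 Prkch had 0.81, and without ND 2 Prkcq had 1.153. Prkcd had 0.17 ± 0.12 SE (-0.13 to 0.46), with 0.05 without HCD 2 and 0.08 without ND 1. The fold change was -0.01 ± 0.23 for Prkcz (-0.57 to 0.54) and -0.02 ± 0.13 for Prkce (-0.32 to 0.27). Over the 8 isoforms, 5 fold changes were positive and 3 negative with a median of 0.15, against 8237 positive and 7302 negative with a median of 0.01 over all tested genes, of which 47% were negative.

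**Figure D3:**
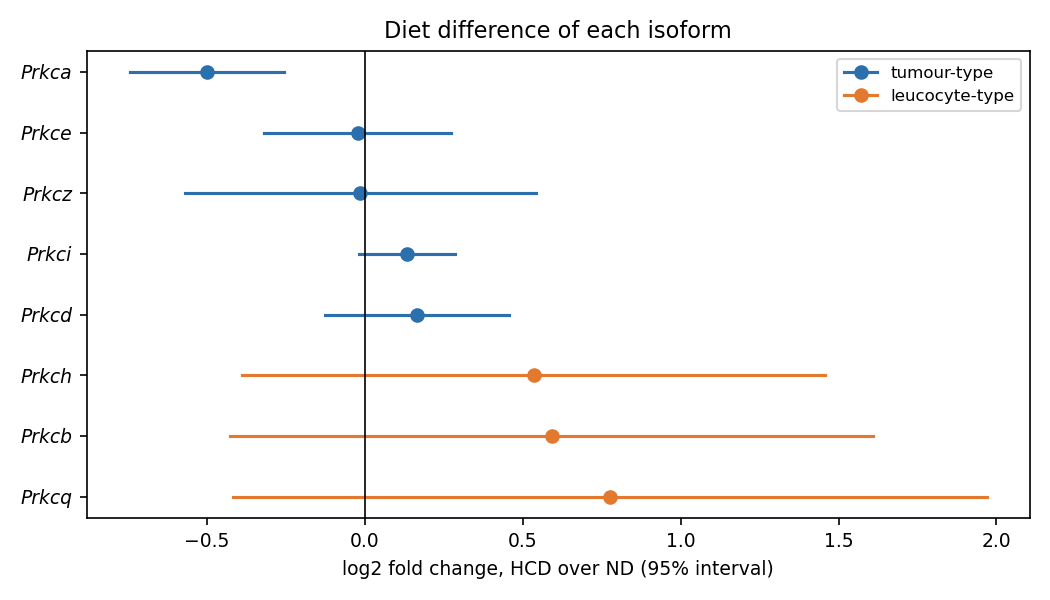
Log2 fold change of HCD over ND with its 95% interval for each isoform, from the edgeR fit over all genes. The interval of Prkca, -0.74 to -0.26, lies below 0, and the intervals of the other 7 isoforms span it.

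Across the 6 tumours the leucocyte-type isoforms and Prkcd had their highest level in HCD 2 and their lowest in ND 1. The pan-leucocyte and T cell scores had the same highest and lowest library, and so had the NK, macrophage, mast cell and endothelial scores. In the macrophage list Cd14 went the other way, with 15.7 FPKM in HCD 2 and 17.8 in ND 1. So did Hdc in the mast cell list, with 0.907 FPKM in HCD 2 and 1.33 in ND 1. The other tested genes of these lists were higher in HCD 2 than in ND 1. The hepatocyte score was lowest in HCD 2. A score of pan-leucocyte genes (Ptprc, Cd53, Coro1a, Laptm5, Cd52 and Itgb2), the mean of their centred log2 CPM, was 0.02, 0.73 and -0.17 in HCD 1 to HCD 3 and -0.79, 0.20 and 0.01 in ND 1 to ND 3. The summed level of the 6 genes ran from 117 to 203 FPKM in HCD and from 93.8 to 147 FPKM in ND tumours. Cd53 went against the other 5, with 49.2 ± 14.8 FPKM in HCD and 61.0 ± 7.20 FPKM in ND tumours (SD, n = 3 each). The summed level of 10 T cell genes ran from 18.9 to 46.3 FPKM in HCD and from 6.08 to 23.1 FPKM in ND tumours, again highest in HCD 2 and lowest in ND 1. Neutrophil and B cell markers had another order: the neutrophil sum was 33.1 to 36.8 FPKM in HCD and 34.3 to 91.7 FPKM in ND tumours, and the B cell sum was highest in HCD 1 at 5.87 FPKM.

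Correlations of the isoforms with marker scores are given as a description, since the isoforms were chosen by their levels in these same 6 libraries. Of 88 pairs of an isoform and a marker list, 0 passed 0.05 in a permutation test after adjustment. With 6 libraries the smallest p that this test can give is 0.00139, which leaves little room to pass after adjustment. The 0 thus does not show that a relation is absent. Before adjustment 25 pairs lay under 0.05. These pairs are not independent, since several scores had the same highest and lowest library. No share for other genes was computed, so the 25 is a description only. With the pan-leucocyte score Pearson r was 0.951 for Prkcb, 0.954 for Prkch, 0.893 for Prkcq and 0.973 for Prkcd (Spearman rho 1.00, 0.829, 0.943 and 0.771, in that order). Without ND 1 and HCD 2, the libraries farthest from the median score, r was 0.999 for Prkcb, 0.595 for Prkch, 0.557 for Prkcq and 0.597 for Prkcd. For Prkch, Prkcq and Prkcd r was thus lower without those 2 libraries. Leaving them out also narrows the range of the score, so the fall cannot show by itself that the relation rested on them. By r alone, Prkcd did not stand apart from the leucocyte-type isoforms on this score. Its level changed less: the highest library was 1.49-fold the lowest in CPM. That range was 3.32-fold for Ptprc, 3.72-fold for Prkcb, 3.58-fold for Prkch and 4.89-fold for Prkcq.

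The value depended on the marker list. With T cell markers r was 0.9496 for Prkch, 0.948 for Prkcq, 0.827 for Prkcb and 0.879 for Prkcd, and without ND 1 and HCD 2 it was 0.911, 0.890, 0.325 and -0.512, in the same order. With macrophage markers r was 0.976 for Prkcb, 0.966 for Prkcd, 0.960 for Prkch and 0.865 for Prkcq, and 0.968, 0.481, 0.684 and 0.524 without HCD 2 and ND 1. With B cell markers r was 0.599 for Prkcb, 0.824 for Prkch, 0.903 for Prkcq and 0.523 for Prkcd, and 0.911, 0.987, 0.922 and 0.815 without HCD 1 and ND 1, the libraries farthest from the median there. With NK markers r was 0.851 for Prkcb, 0.936 for Prkch, 0.884 for Prkcq and 0.918 for Prkcd. Without ND 1 and HCD 2 it was 0.321, 0.773, 0.242 and -0.347, in the same order. With mast cell markers r was 0.874, 0.844, 0.716 and 0.955, and -0.00469, -0.435, -0.804 and 0.447 without ND 1 and HCD 2. With hepatocyte markers r was -0.954, -0.795, -0.663 and -0.872, and -0.728, -0.834, -0.714 and -0.294 without HCD 2 and ND 2. Each diet has only 3 libraries, too few for a correlation within a diet.

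The ratio to Ptprc, the gene of the pan-leucocyte surface protein CD45, was compared in FPKM. It ran from 0.0488 to 0.113 for Prkcq, a 2.31-fold range, and from 1.64 in HCD 2 to 3.67 in ND 1 for Prkcd, a 2.24-fold range. It ran from 0.180 to 0.262 for Prkcb, a 1.45-fold range, and from 0.511 to 0.632 for Prkch, a 1.24-fold range. Before division by Ptprc the FPKM range was 1.54-fold for Prkcd, narrower than that of its ratio. The FPKM ranges of 5.06-fold for Prkcq, 3.85-fold for Prkcb and 3.71-fold for Prkch were wider than those of their ratios. Per unit of Ptprc, Prkch averaged 0.586 ± 0.0519 in HCD and 0.551 ± 0.0405 in ND tumours, Prkcb 0.215 ± 0.0419 in HCD and 0.206 ± 0.0269 in ND tumours, and Prkcq 0.0834 ± 0.0255 in HCD and 0.0619 ± 0.0135 in ND tumours (SD, n = 3 each). Prkcd averaged 2.24 ± 0.661 in HCD and 2.69 ± 0.854 in ND tumours on the same scale.

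With the pan-leucocyte score r was -0.484 for Prkca, 0.554 for Prkci, -0.195 for Prkce and 0.00896 for Prkcz. Without ND 1 and HCD 2 the r of Prkca was 0.925 and that of Prkci -0.958, opposite in sign to the values over all libraries. Endothelial markers were also highest in HCD 2, where their summed level was 58.3 FPKM, against 25.1 to 31.7 FPKM in the other 5 libraries. Prkcb had r = 0.985 with the endothelial score, and r was 0.758 without HCD 2 and ND 1. The part of any cell type in an isoform's level was not tested.

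**Figure D4:**
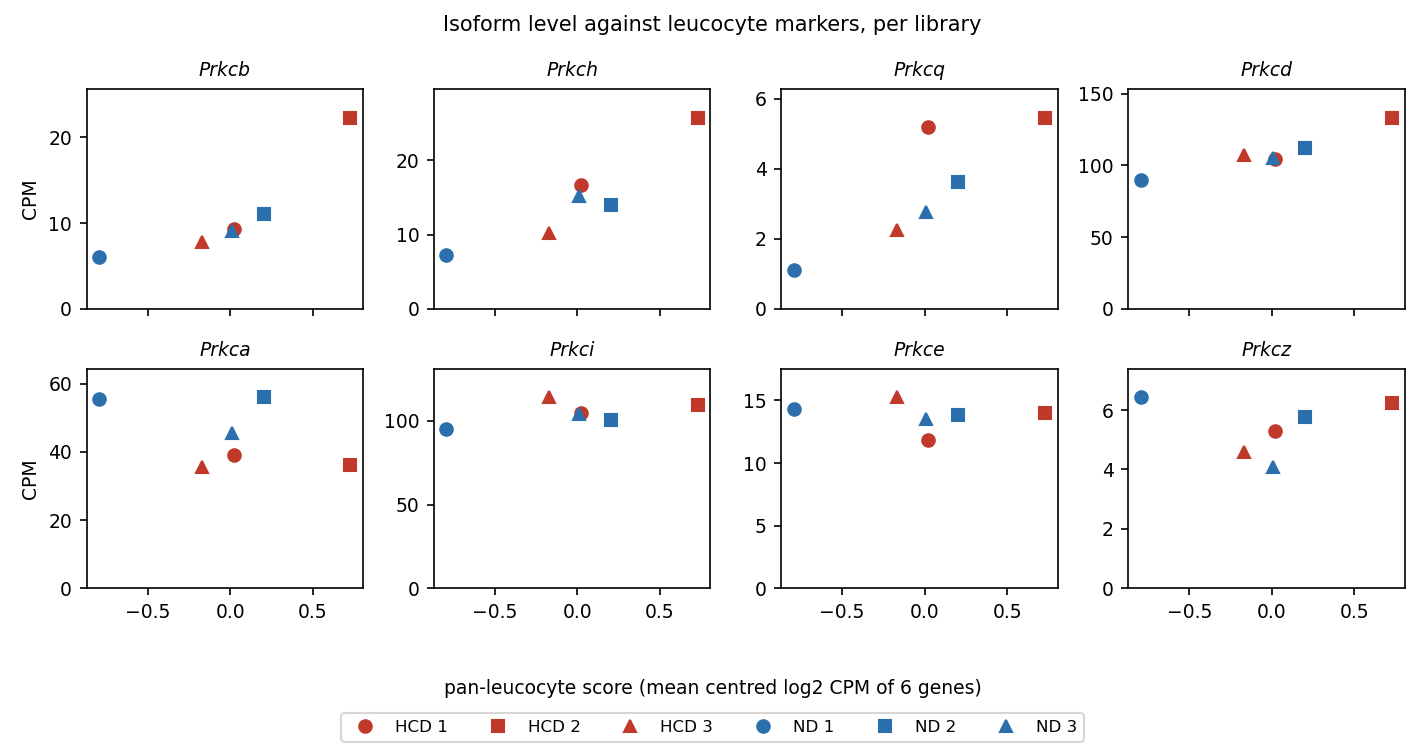
CPM of each isoform (vertical axes from 0) against the pan-leucocyte score of the library, HCD in red and ND in blue. Prkcb, Prkch, Prkcq and Prkcd are lowest in ND 1 and highest in HCD 2, while Prkca and Prkci keep no such order.

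Among the isoforms themselves, the Pearson r of log2 CPM over the 6 libraries was 0.962 for Prkcb and Prkcd, 0.929 for Prkch and Prkcq, and 0.915 for Prkcb and Prkch. The lowest of the 28 pairs was Prkca and Prkci at -0.909. The 6 libraries, their depth and their normalisation are common to all pairs, and these values are a description. A search was made over the 14045 genes that averaged 1 CPM or more, passing over the other isoforms and predicted Gm or Rik genes. It gave the closest remaining patterns for each isoform by the same measure. For Prkcd they were Tlr8 (r = 0.999), Lcp2 (0.998) and Hip1 (0.996), and for Prkch Adcy7 (0.998), Lpcat2 (0.995) and Nfatc2 (0.994). For Prkcq they were Batf3 (0.996), Cd79b (0.995) and Cxcr5 (0.994), and for Prkcb C1s1 (0.997), Mthfsl (0.995) and Armc7 (0.994). For Prkca they were Brd8 (0.996), Gad1-ps (0.995) and Nkain1 (0.992), for Prkci Rps20 (0.993) and Psmg4 (0.988), for Prkce Slc27a4 (0.993), Gpalpp1 (0.993) and Aldoa (0.988), and for Prkcz Trappc12 (0.992), Tspan3 (0.969) and Trmt2b (0.965). The number of genes at 0.95 or above, with those passed over counted, ran from 7 for Prkcz to 273 for Prkcd. The highest of 14045 values over 6 libraries are high by selection, so the names carry little information. Cd79b and Cxcr5 averaged only 1.49 and 1.04 CPM.

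Other kinases related to the family were present. Of the kinases related to PKC, Pkn2 stood at 9.32 ± 0.0445 in HCD and 9.07 ± 0.464 FPKM in ND tumours and Pkn3 at 4.64 ± 0.565 in HCD and 4.85 ± 0.409 FPKM in ND tumours. Of the protein kinase D genes, Prkd3 had 6.62 ± 0.412 in HCD and 6.68 ± 0.458 FPKM in ND tumours, Prkd2 3.87 ± 0.489 in HCD and 3.73 ± 0.283 FPKM in ND tumours, and Prkd1 0.173 ± 0.1251 in HCD and 0.114 ± 0.0532 FPKM in ND tumours (SD, n = 3 each). None of these 5 kinases passed the test.

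Upstream of the kinases, 0 of 11 tested phospholipase C genes passed in either direction, with a median log2 fold change of 0.06. Plcb3, activated by G protein coupled receptors, was the highest at 31.5 ± 1.48 in HCD and 33.7 ± 2.18 FPKM in ND tumours (SD, n = 3 each). Plcb1, of the same group, had the smallest p, with a log2 fold change of 0.16 ± 0.12 SE.

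Diacylglycerol kinases, which remove the activating lipid, had positive fold changes for 5 of 6 tested genes with a median of 0.16, and 0 passed. Dgka, known from T cells, had 24.1, 22.4 and 18.7 FPKM in HCD 1 to HCD 3 and 17.6, 16.9 and 17.8 FPKM in ND 1 to ND 3, a log2 fold change of 0.30 ± 0.10 SE (edgeR adjusted p = 0.839). For Dgka, Dgke and Dgkz all HCD tumours lay above all ND tumours, beside the 4.75% of all tested genes. Among other diacylglycerol receptors 0 of 9 passed, 5 positive and 4 negative. Rasgrp4, an activator of Ras in mast cells and other myeloid cells, had 0.233, 0.224 and 0.117 FPKM in HCD and 0.383, 0.448 and 0.471 FPKM in ND tumours, a log2 fold change of -1.20 ± 0.29 SE (edgeR adjusted p = 0.839). Unc13d, needed for granule release by cytotoxic cells, had the highest mean, 2.56 ± 0.425 in HCD and 2.70 ± 0.949 FPKM in ND tumours (SD, n = 3 each).

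Genes for maturation and scaffolds of the kinases had 0 of 14 past the test with a median of 0.03. The chaperone gene Hsp90ab1 had 401 ± 7.72 in HCD and 376 ± 4.84 FPKM in ND tumours (SD, n = 3 each). Pard6g, a Par6 partner of the atypical isoforms, had counts of 58, 82 and 37 in HCD 1 to HCD 3 and 27, 22 and 25 in ND 1 to ND 3, a log2 fold change of 1.40 ± 0.36 SE (edgeR adjusted p = 0.839). Every HCD tumour lay above every ND tumour for Pard6g, 1 of the 14 tested genes, beside 4.75% of all tested genes. All HCD tumours lay below all ND tumours for Pard3, also 1 of the 14, beside 6.36% of all tested genes. Pard3 had 2.69 ± 0.119 in HCD and 3.14 ± 0.216 FPKM in ND tumours (SD, n = 3 each). In the CARD, BCL10 and MALT1 group, through which PKC activates NF-kB in lymphocytes, 0 of 6 passed, and Malt1 was highest at 21.1 ± 2.46 in HCD and 21.5 ± 0.9501 FPKM in ND tumours (SD, n = 3 each). The smallest p in the group was that of Card14, a skin protein gene with 29, 11 and 12 counts in HCD 1 to HCD 3 and 4, 10 and 7 in ND 1 to ND 3. In CPM, the HCD tumours lay above the ND tumours for Card14 and below them for Bcl10. Each was 1 of the 6 tested genes, beside 4.75% above and 6.36% below over all tested genes.

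Of 13 tested genes of PKC substrates 0 passed, 8 positive and 5 negative with a median of 0.04. Ppp1r14b, a phosphatase inhibitor gene, was the highest at 108 ± 23.8 in HCD and 95.8 ± 20.6 FPKM in ND tumours (SD, n = 3 each). Sdc4, which encodes a surface proteoglycan that binds PKC alpha, had 45.1, 57.04 and 59.8 FPKM in HCD 1 to HCD 3 and 68.4, 58.1 and 70.1 FPKM in ND 1 to ND 3, a log2 fold change of -0.29 ± 0.14 SE (edgeR adjusted p = 0.839). The diets overlapped for Sdc4, with HCD 3 above ND 2.

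**Figure D5:**
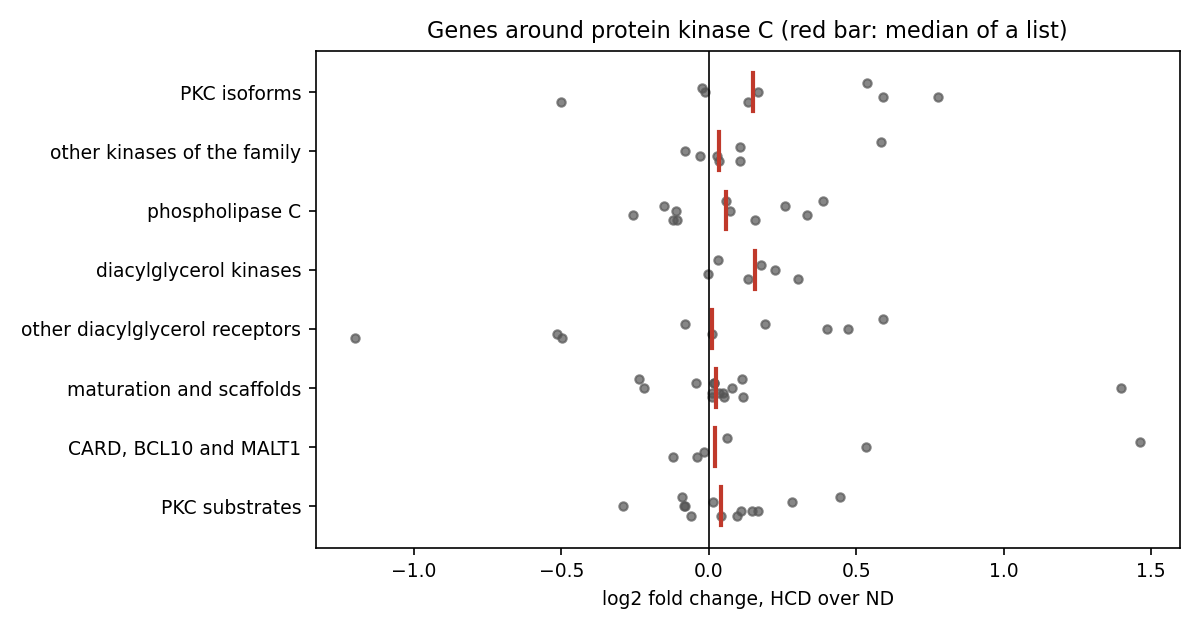
Log2 fold change of HCD over ND for every tested gene (points) of 8 lists around protein kinase C, with the median of each list as a red bar. The medians lie between 0.01 and 0.16, and none of the points passed the test.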

How the data were processed

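Read counts and FPKM values for 34745 genes were deposited by the authors, with 1 column of each kind for each of the 6 samples. In the deposited table, FPKM is the count over library total and over 1 length per gene. The submitters' processing notes name mm10, CASAVA 1.8, TopHat2 2.0.9, HTSeq and edgeR, without order or role. The strand setting and annotation are not given in the sources used here. Per the labels' protocols, libraries came from total RNA and the TruSeq RNA kit.

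Counts were tested with edgeR 4.0.16 in R 4.3.3 (quasi-likelihood test, TMM, default filter with minimum count 10, diet as the only term, Benjamini-Hochberg over 15539 genes, threshold 0.05), which was checked on simulated data. CPM used TMM library sizes. Intervals are 95%. A count of 0 in a library would allow 0.114 to 0.147 CPM (3 counts). Gene positions are from GENCODE M21 (GRCm38, the build of mm10).

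Correlations used 11 marker lists (pan-leucocyte, T, NK, B, macrophage, mast cell, neutrophil, endothelium, fibroblast, simple epithelium, hepatocyte). The muscle list, in which libraries fall into clusters, was not correlated. Named genes were the isoforms, the related kinases, the most abundant gene and the gene with the smallest p of each pathway list, and the 3 nearest patterns. Genes named because the diets did not overlap were added after their values were seen. Some genes that this rule names are not reported here. The isoforms, lists and tests were chosen with earlier results of these data known. Alternatives used DESeq2 1.42.0, limma 3.58.1, other scalings and filters, FPKM on a log2 scale and fewer libraries.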

Additional observations from a re-analysis of the deposited data

How the results depend on the processing

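No isoform passed in any of 18 alternative fits (16 for Prkcb, Prkcq and Prkcz, which a filter on FPKM left out of 2 limma fits). Over all genes, the DESeq2 Wald test called 7 genes against 0 with edgeR, and leaving out 1 library gave 0 to 2, with 2 without ND 2. The cause was not tested. The log2 fold change of Prkca ran from -0.59 to -0.39 and that of Prkci from 0.10 to 0.18 over all alternatives, so neither changed sign. With 1 library left out, Prkcb ran from -0.0214 (without HCD 2) to 0.857, Prkce from -0.110 to 0.0715 and Prkcz from -0.182 to 0.126, while Prkcq ran from 0.42 to 1.153, Prkch from 0.16 to 0.81 and Prkcd from 0.05 to 0.24. Without both HCD 1 and ND 2, an alternative chosen after seeing the data, Prkce was 0.0758 and Prkcz 0.0457. In limma on log2(FPKM + 1) with no filter Prkcz was 0.00295. With the replicate number as a block Prkcz was 0.000892, and the block changed no call. Same-numbered samples deviated from their diet means with r of -0.31, 0.14 and 0.08. So few values cannot decide whether the numbers mean more than a label. The leucocyte-type share stayed higher in HCD by 0.878 to 5.49 percentage points with 1 library left out. It was higher by 1.23 points with Prkch counted as tumour-type and by 2.41 points with the M21 lengths. The use of the M21 lengths was also chosen after seeing the data. With Prkcd counted as leucocyte-type the difference was 4.17 points. The share itself then averaged 40.7% in HCD and 36.5% in ND tumours, so its size depends on where Prkcd is placed. Depth limits Prkcq most, at 25 counts in ND 1.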
